A study of Mus musculus with 6 samples.

Results

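Interferon-stimulated genes and the nucleic acid sensors that induce them were followed in mouse colonic organoids, which are crypt-derived epithelial cultures. The organoids had been treated to induce recombination of both atypical protein kinase C genes. The set held 51 genes, listed by symbol as interferon receptors, sensors and adaptors, transcription factors, effectors and 1 feedback inhibitor, out of 25067 rows in the expression table. All 51 had a row, 50 under the listed symbol and Tmem173 under its newer symbol, Sting1. Of these, 46 passed the filter on low values, a mean of at least 10 normalized counts over the 6 libraries, which 13210 rows passed in all.

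RNA was sequenced from 6 libraries of colon organoids from C57BL/6 mice aged 8 weeks, 3 per group. Every library carried the genotype given as Prkcif/fPrkczf/f;Villin-CreERT2, with floxed alleles of Prkci and Prkcz and a tamoxifen-inducible Cre recombinase under the Villin promoter, which is active in intestinal epithelium. The groups received 4-OHT (4-hydroxytamoxifen) or its vehicle, ethanol, at passage and were grown for 3 days in medium with WNT3A, EGF, Noggin and R-spondin 1. The vehicle libraries are described as wild type in 1 label although they carry the same floxed alleles. No library received 4-OHT without Cre or without floxed alleles, so the drug, Cre activity and loss of the kinases cannot be told apart. Neither animals nor separate cultures are named for the libraries, so p-values measure only the spread between these samples.

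Cells sense foreign or misplaced nucleic acids with proteins that bind double-stranded RNA in the cytosol (RIG-I, MDA5), DNA in the cytosol (cGAS with STING) or RNA in endosomes (TLR3). These signal to IRF3 and IRF7, which switch on interferon genes. Secreted interferons bind receptors on the same or neighbouring cells, and JAK kinases, STAT factors and IRF9 then induce interferon-stimulated genes, whose products degrade or bind viral RNA, modify proteins with ISG15 or damp the signal. Intestinal epithelium is known for keeping a low level of this programme at rest and for responding to interferon lambda.

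Interferons act on promoters through the interferon-stimulated response element and the gamma-activated site, and promoter windows of 8 members are shown because the members' results are compared by these motifs below. The interferon-stimulated response element core was searched as GAAA, 2 bases of any kind, GAAA, on both strands, and the gamma-activated site as TTC, 3 bases of any kind, GAA, which reads the same on both strands. RefSeq promoter windows of GRCm38.p6, from 250 bases before to 50 bases after each start, were matched for 41 of the 51 members, and the other 10 had no entry. The response element core was in 17 of the 41 (41.5%), against 3.99% of the 27025 gene symbols with a promoter, and the gamma-activated site in 12 (29.3%) against 9.55%. Capitals below mark every match of either motif within the 60 bases shown, which lie before the start site and read 5′ to 3′ along the gene's strand. In Isg15, Bst2, Gbp3 and Socs1 the matches overlap, and the capitals of Bst2 begin with a gamma-activated site.
Ifit1: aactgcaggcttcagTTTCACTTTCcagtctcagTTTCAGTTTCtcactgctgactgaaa
Ifit3: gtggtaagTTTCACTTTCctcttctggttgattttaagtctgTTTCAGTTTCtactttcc
Ifit3b: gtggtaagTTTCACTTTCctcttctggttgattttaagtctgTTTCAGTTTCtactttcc
Isg15: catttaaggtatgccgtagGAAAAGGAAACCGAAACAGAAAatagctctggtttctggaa
Bst2: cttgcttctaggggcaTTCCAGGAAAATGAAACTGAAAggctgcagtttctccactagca
Gbp3: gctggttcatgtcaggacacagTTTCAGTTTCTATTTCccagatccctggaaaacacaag
Socs1: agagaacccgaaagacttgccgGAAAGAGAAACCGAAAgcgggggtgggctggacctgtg
Irf8: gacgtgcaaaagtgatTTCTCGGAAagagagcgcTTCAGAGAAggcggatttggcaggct

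The windows of Ifit1 (chr19:34640770-34640829), Ifit3 (chr19:34583365-34583424) and Ifit3b (chr19:34607761-34607820) are on the plus strand, as are those of Gbp3 (chr3:142559977-142560036) and Irf8 (chr8:120736171-120736230). Those of Isg15 (chr4:156200856-156200915), Bst2 (chr8:71537565-71537624) and Socs1 (chr16:10785582-10785641) are on the minus strand. The Ifit3 and Ifit3b windows were identical at 60 of 60 bases. Irf8 is shown for its 2 gamma-activated sites. A match is a description of the letters and does not show that a factor bound there.

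**Figure D1:**
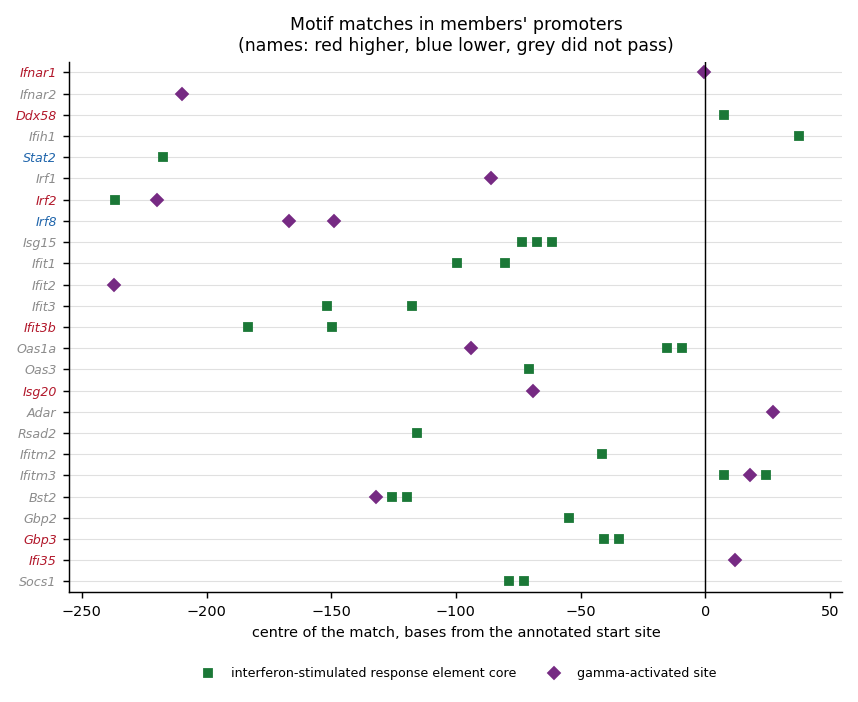
Matches of the interferon-stimulated response element core (squares) and the gamma-activated site (diamonds) in promoters of members, plotted by the distance in bases of the match's centre from the annotated start site, with 1 gene per line. Of the 17 members with the response element core, 4 rose, 1 fell and 12 did not pass the test.

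Both targeted genes were lower after 4-OHT. Prkcz held 880, 904 and 954 normalized counts in the vehicle libraries and 287, 265 and 290 with 4-OHT, and fell by 1.70 on the log2 scale (SE 0.08, adjusted p = 3.2e-12). Prkci fell by 0.22 (SE 0.05, adjusted p = 8.1e-04), from 3430 to 3603 normalized counts down to 2869 to 3105. Counts per gene do not measure recombination or protein, so the extent of loss of either kinase is not shown. Recovered reads ranged from 15804709 to 26957612 per library. The first principal component (58.2% of the variance) separated the groups, and the second (14.1%) set 4-OHT replicate 1, at -26.8, apart from replicates 2 and 3, at 10.5 and 10.9. Epithelial markers took 20300 to 20800 reads per 1000000 in vehicle and 26200 to 27900 with 4-OHT. Of 15 leukocyte markers with a row, 7 had at most 3 reads in every library, including Cd3e and Cd4, and the summed level of the list, mostly Cd14 and Cd68, was 47.8 to 50.6 reads per 1000000 in vehicle and 57 to 60.9 with 4-OHT. The 10 Paneth cell and ileal markers summed to 13.0, 19.9 and 14.8 reads per 1000000 in vehicle and 12.9, 65.4 and 53.6 in 4-OHT replicates 1, 2 and 3. Of 6 plasma cell markers, the immunoglobulin genes Igha, Igkc and Jchain were at 0 in all vehicle libraries. They reached 140, 40.4 and 31.1 normalized counts in 4-OHT replicate 2 and 45.5, 17.1 and 8.0 in replicate 3. The other markers did not share this pattern: Mzb1 was at 0 in every library and Xbp1 fell by 0.24. Sdc1 held 11187 to 11806 normalized counts in vehicle and rose by 0.69. The 10 fibroblast and muscle markers summed to 2.23, 4.49 and 15.5 reads per 1000000 in the 4-OHT libraries against 2.28 to 3.63 in vehicle. The members were therefore also compared with 4-OHT replicate 1 alone.

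A minority of the interferon genes changed after 4-OHT, most of them upwards. Of the 46 members tested, 17 rose, 2 fell and 27 did not pass the test, an adjusted p under 0.05. The genes that rose most, Mx1, Gbp3, Ifit3b and Usp18, had 3.33 to 6.34 normalized counts per 1000 bases in vehicle, while Ifngr1, Ifngr2, Ddx58, Irf2, Irf7 and Irf9 rose by 0.22 to 0.62 on the log2 scale. Irf8 fell by 0.76 and Stat2 by 0.24. Other interferon-stimulated members, among them Isg15, Ifit1, Ifit2, Rsad2, Bst2 and Ifitm3, did not pass.

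These counts were read against the whole table, in which a large share of all genes changed. Members changed in 41.3% of cases (19 of 46) and all rows tested in 43.6%. The share that rose was 37.0% among members and 22.7% among all rows, and the share that fell was 4.35% against 21.0%. A rise of at least 0.5 was found for 6 members (13.0%) and 6.68% of all rows. All 3 4-OHT values lay above all 3 vehicle values for 16 members (34.8%) and 26.8% of rows, and below them for 3 members (6.52%: Mavs, Stat2 and Irf8) and 25.3% of rows. The median log2 fold change was 0.22 for the members and -0.005 for all rows, with 34 members above 0 and 12 below.

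**Figure D2:**
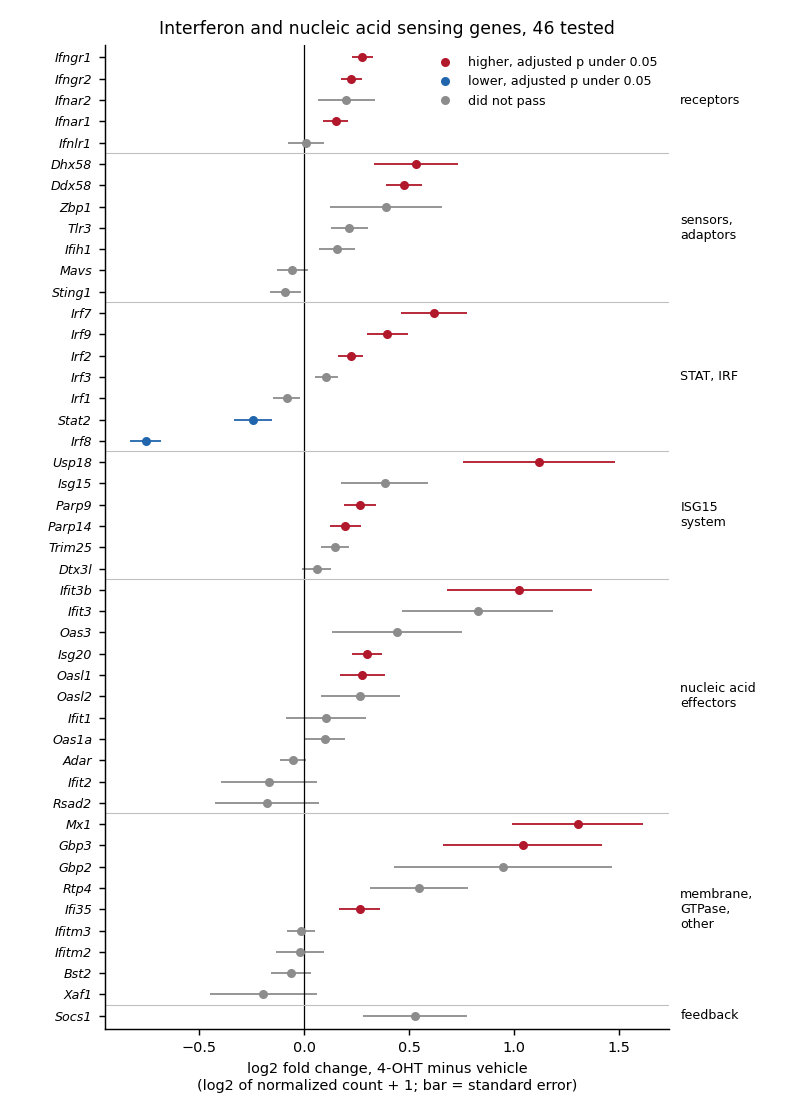
Log2 fold change, 4-OHT minus vehicle, of the 46 tested members, grouped by role on the vertical axis, with bars for the standard error of the fit (3 libraries per group). The values ran from -0.76 for Irf8 to 1.30 for Mx1, with 17 members past the threshold on the higher side (red) and 2 on the lower side (blue).

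The rises rested in part on 4-OHT replicates 2 and 3, the libraries with the Paneth cell, ileal and immunoglobulin transcripts. With these left out, 6 members passed (13.0%) and 27.0% of all rows did, and the members' median was 0.11. The 6 were Ifnar1, Ifngr1, Ddx58 and Irf2, which were higher, and Irf1 and Irf8, which were lower. All 17 members that rose had a value above 0 in 4-OHT replicate 1 alone, but 12 of them were lowest in that library of the 4-OHT libraries. The fit that picked the 17 already included this library, so a value above 0 there is no separate support. The same figures over all rows that rose were not counted. The part of the Paneth cell, ileal, immunoglobulin and fibroblast transcripts in these rises was not tested. Besides this, Ifnar1, Dhx58, Stat2, Usp18, Parp14, Ifit3b, Oasl1, Gbp3 and Ifi35 were each lost in at least 1 other alternative, Ifnar1 in 11 of 16, and the share that rose came close to that of all rows in several settings. With DESeq2 11 members rose (23.9% against 20.5% of all rows), without vehicle replicate 2 it was 10 (21.7% against 19.8%, 12 members changed), without 4-OHT replicate 3 also 10 (21.7% against 19.9%, 11 changed) and with 4-OHT replicate 1 alone 4 (8.70% against 14.1%).

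**Figure D3:**
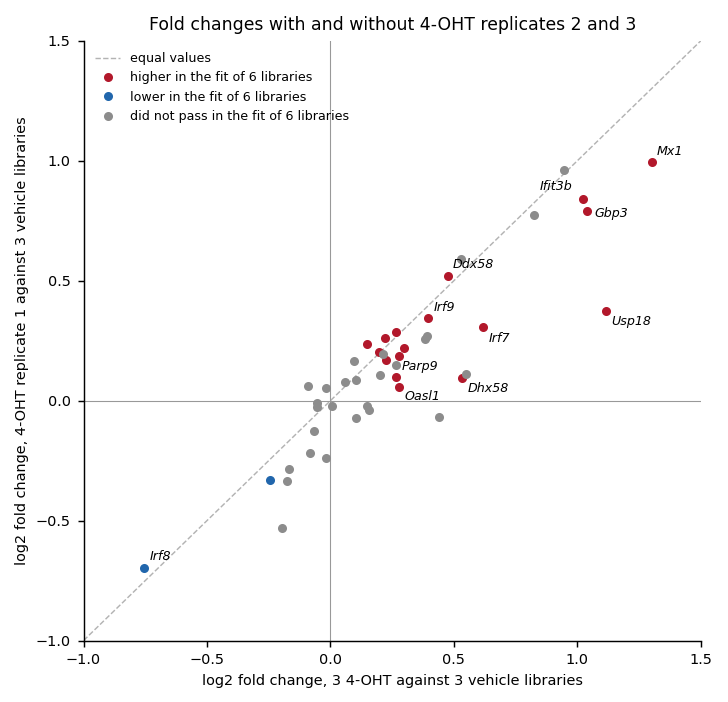
Log2 fold change of each tested member with 3 4-OHT libraries (horizontal axis) against that with 4-OHT replicate 1 alone (vertical axis), each against the 3 vehicle libraries. Irf8, Ddx58 and Irf9 lie near the dashed line of equal values, while Dhx58 (0.53 and 0.10), Irf7 (0.62 and 0.31) and Usp18 (1.12 and 0.38) lie below it.

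Both interferon gamma receptor chains rose. Ifngr1, the ligand-binding chain, held 3183, 3383 and 3367 normalized counts in vehicle and 3769, 4202 and 4062 with 4-OHT. It rose by 0.28 (SE 0.05, adjusted p = 1.4e-04). Ifngr2, the signalling chain, held 3208, 3360 and 3553 in vehicle and 3791, 4038 and 3990 with 4-OHT. The groups did not overlap for either chain, and Ifngr2 rose by 0.22 (SE 0.05, adjusted p = 8.7e-04). For Ifngr1 the difference also passed with 4-OHT replicate 1 alone (0.19, adjusted p = 0.039), whereas for Ifngr2 it was 0.17 with an adjusted p of 0.081.

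Of the type I interferon receptor, Ifnar1 held 1104, 1143 and 1092 normalized counts in vehicle and 1310, 1192 and 1202 with 4-OHT. The groups did not overlap, and the rise of 0.15 (SE 0.06) was just past the threshold (adjusted p = 0.045). Ifnar2, the second chain, held 152, 167 and 203 in vehicle and 186, 237 and 178 with 4-OHT, so the groups overlapped, with a difference of 0.20 (SE 0.14, adjusted p = 0.25). Ifnlr1, the specific chain of the interferon lambda receptor, held 633, 646 and 521 in vehicle and 588, 657 and 559 with 4-OHT. Its difference was 0.01 (SE 0.09, adjusted p = 0.95).

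Levels of different genes were set side by side per 1000 bases of merged exon. The merged length covers all annotated exons of a gene and can exceed that of the transcript present. The order of close values, such as those of Ifitm3 and Ifngr1, therefore depends on the length used. On this scale the gamma receptor chains were among the most abundant members in vehicle. Ifitm3 came first with 1260 normalized counts per 1000 bases, followed by Ifngr1 with 1160 and Ifngr2 with 896. Ifnar1 had 187, Ifnlr1 143 and Ifnar2 52.3. The effectors spanned the whole range, from 460 for Bst2, 368 for Ifitm2 and 317 for Isg20 through 90.2 for Isg15 and 23.0 for Ifit1 to 9.89 for Rsad2, 4.45 for Mx1 and 0.399 for Herc6. In bulk RNA, fewer cells of a type and less RNA per cell cannot be told apart.

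Among the cytosolic sensors, the RNA helicase genes Ddx58 and Dhx58 rose. Ddx58 encodes RIG-I, which recognises short double-stranded RNA with a 5′ triphosphate, and held 397, 336 and 375 normalized counts in vehicle and 529, 524 and 485 with 4-OHT. Every 4-OHT library lay above every vehicle library. The rise was 0.47 (SE 0.08, adjusted p = 1.3e-04), and 0.52 with 4-OHT replicate 1 alone (adjusted p = 0.0084). Ddx58 is given in full, as are Irf9 and Isg20, because of its values.

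Dhx58 encodes LGP2, a related helicase that tunes signalling by RIG-I and MDA5. It held 73.7, 63.1 and 55.7 normalized counts in vehicle and 68.2, 109 and 107 with 4-OHT. The rise of 0.53 (SE 0.20, adjusted p = 0.036) came from replicates 2 and 3, since replicate 1 lay within the vehicle range. Ifih1, which encodes MDA5, held 544, 560 and 513 in vehicle and 525, 624 and 661 with 4-OHT, with replicate 1 again the lowest 4-OHT library and a difference of 0.16 (SE 0.08) that did not pass (adjusted p = 0.14).

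The adaptors and the remaining sensors did not pass. Sting1, the adaptor of the DNA sensor cGAS, held 813, 854 and 904 normalized counts in vehicle and 893, 737 and 790 with 4-OHT, with a difference of -0.09 (SE 0.07, adjusted p = 0.34). Mavs, the mitochondrial adaptor of RIG-I and MDA5, was lower in all 3 4-OHT libraries by 0.06 on average (SE 0.07, adjusted p = 0.56). Tlr3, the endosomal sensor of double-stranded RNA, ranged from 294 to 329 in vehicle and from 355 to 363 with 4-OHT, a difference of 0.21 (SE 0.09) that missed the threshold (adjusted p = 0.056). Zbp1, a sensor of Z-form nucleic acids, differed by 0.39 (SE 0.27, adjusted p = 0.25).

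The transcription factors moved in both directions. Irf7, which amplifies interferon production, held 267, 204 and 155 normalized counts in vehicle and 252, 359 and 340 with 4-OHT. It rose by 0.62 (SE 0.16, adjusted p = 0.0033), but the groups overlapped because vehicle replicate 1 lay above 4-OHT replicate 1. With 4-OHT replicate 1 alone the difference was 0.31 (adjusted p = 0.38). Irf9, the DNA-binding subunit of the complex it forms with STAT2, held 469, 402 and 339 in vehicle and 507, 533 and 537 with 4-OHT, without overlap, and rose by 0.39 (SE 0.10, adjusted p = 0.0027). Irf2, which competes with IRF1 for the same motif, rose by 0.22 (SE 0.06, adjusted p = 0.0045), from 1006 to 1104 up to 1200 to 1274 normalized counts.

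Irf8 had the largest fall of any member and the lowest adjusted p. IRF8 is best known as a factor of myeloid cells and is also induced by interferon gamma in epithelial cells. It held 1247, 1303 and 1364 normalized counts in vehicle and 805, 838 and 682 with 4-OHT. The groups were far apart, and the fall was 0.76 (SE 0.07, adjusted p = 6.4e-08), or 0.70 with 4-OHT replicate 1 alone (adjusted p = 8.8e-05). Of the myeloid genes in the leukocyte list, Itgam, Itgax and Adgre1 reached at most 5.7 normalized counts. Adgre1 and Lyz2 were at 0 in all vehicle libraries. In 4-OHT replicates 1, 2 and 3 Adgre1 held 0, 1.0 and 5.7, and Lyz2 1.0, 6.2 and 28.5. Csf1r rose (4.8 to 13.1 in vehicle, 15.5 to 29.6 with 4-OHT). Cd14 rose by 0.44, and Cd68 fell by 0.42, from 165 to 212 down to 131 to 157. The part of such cells in the fall of Irf8 was not tested. Stat2, the STAT particular to type I and lambda interferon signalling, ranged from 555 to 733 in vehicle and from 500 to 553 with 4-OHT and fell by 0.24 (SE 0.09, adjusted p = 0.032). Without vehicle replicate 1, its highest library, the value was -0.13 and did not pass (adjusted p = 0.25).

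The 2 factors with the highest vehicle levels per 1000 bases, Irf3 (341) and Irf1 (299), did not pass in the 6 libraries. Irf1, an early target of interferon signalling, held 1191, 1147 and 1230 normalized counts in vehicle and 1021, 1162 and 1191 with 4-OHT, with a difference of -0.08 (SE 0.06, adjusted p = 0.31). With 4-OHT replicate 1 alone it was lower by 0.22 (adjusted p = 0.048). Irf3, a factor activated downstream of MAVS and STING, held 1192, 1135 and 1196 in vehicle and 1246, 1298 and 1243 with 4-OHT. Its groups did not overlap, but the difference was only 0.10 (SE 0.06, adjusted p = 0.14).

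**Figure D4:**
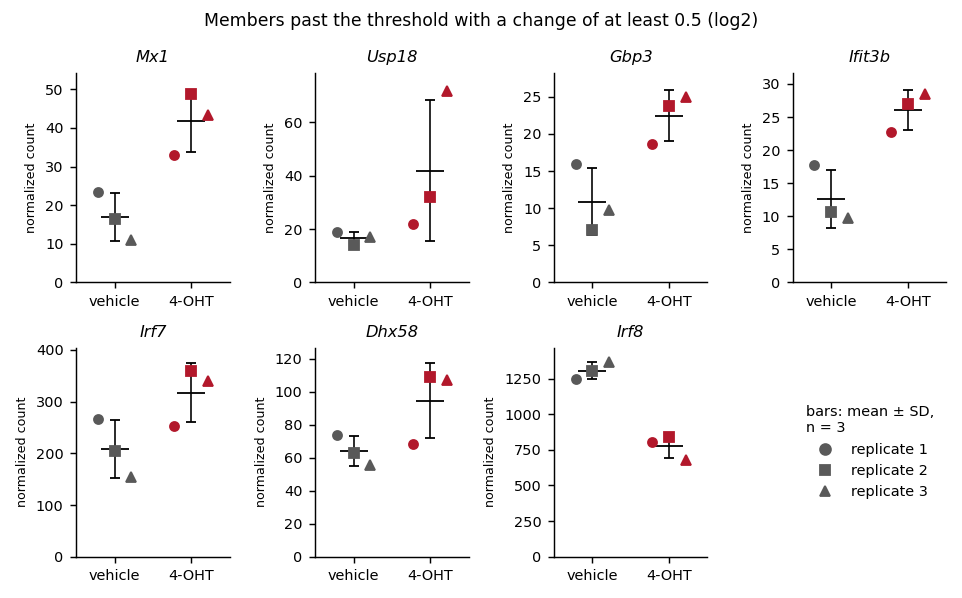
Normalized counts of the 7 members past the threshold with a change of at least 0.5 on the log2 scale, by group, with 1 symbol per library and bars for mean ± SD (n = 3 per group). Irf8 is lower in all 3 4-OHT libraries, while for Irf7 and Dhx58 the circle of 4-OHT replicate 1 lies within the vehicle range and Usp18 is highest in 4-OHT replicate 3.

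Of the ISG15 and ADP-ribose genes, 3 of 6 tested rose (50%, against 22.7% of all rows). Usp18 encodes the protease that removes ISG15 and also blocks the type I receptor, and held 18.7, 14.2 and 16.9 normalized counts in vehicle and 21.7, 32.1 and 71.7 with 4-OHT. The groups did not overlap, but the value in 4-OHT replicate 3 carried much of the rise of 1.12 (SE 0.36, adjusted p = 0.017), and without that library Usp18 was at 0.65 and did not pass. Parp9, an ADP-ribosyltransferase, held 704, 740 and 683 in vehicle and 758, 914 and 890 with 4-OHT, and rose by 0.27 (SE 0.07, adjusted p = 0.0064), or 0.10 with 4-OHT replicate 1 alone (adjusted p = 0.45). Its partner Dtx3l, a ubiquitin ligase, differed by 0.06 (SE 0.07, adjusted p = 0.52). The difference between these partners was not tested. Parp14, also an ADP-ribosyltransferase, rose by 0.20 (SE 0.07, adjusted p = 0.036), a call lost in 6 of 16 alternatives.

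Isg15 itself, the ubiquitin-like modifier, held 90.5, 59.6 and 54.5 normalized counts in vehicle and 79.6, 75.7 and 109 with 4-OHT. Vehicle replicate 1 lay above 2 of the 4-OHT libraries, and the difference of 0.38 (SE 0.21) did not pass (adjusted p = 0.15). Trim25, the ubiquitin ligase that activates RIG-I with the highest level per 1000 bases in this role (566), held 3467, 3387 and 2909 in vehicle and 3190, 3891 and 3730 with 4-OHT. Its difference was 0.15 (SE 0.07, adjusted p = 0.093).

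Among the effectors that act on RNA or bind it, 3 of 11 tested rose (27.3%, near the 22.7% of all rows). The others, including most of the classical ones, did not pass. Ifit3b, of the family that binds foreign RNA ends, held 17.7, 10.6 and 9.7 normalized counts in vehicle and 22.7, 27.0 and 28.5 with 4-OHT. The groups did not overlap and the rise was 1.02 (SE 0.35, adjusted p = 0.022), a call lost in 7 of 15 alternatives. Its neighbour Ifit3 held 44.8, 20.6 and 13.3 in vehicle and 40.3, 30.1 and 60.3 with 4-OHT, and did not pass (0.83, SE 0.36, adjusted p = 0.07). Of the 50-base words of the longest coding Ifit3b transcript, 44.5% also occur in Ifit3 transcripts, so the split of reads between them is uncertain. Ifit1 differed by 0.10 (SE 0.19) and Ifit2 by -0.17 (SE 0.23), and neither passed (adjusted p = 0.7 and 0.59).

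Isg20, an exonuclease of single-stranded RNA, held 604, 590 and 575 normalized counts in vehicle and 686, 787 and 705 with 4-OHT. It rose by 0.30 (SE 0.07, adjusted p = 0.0021), without overlap. Oasl1, a synthetase-like protein without the enzyme activity, held 885, 815 and 627 in vehicle and 798, 1058 and 954 with 4-OHT, and its rise of 0.28 (SE 0.11, adjusted p = 0.039) came with overlapping groups and was 0.05 with 4-OHT replicate 1 alone (adjusted p = 0.82). It did not pass without vehicle replicate 3 (0.13) or without 4-OHT replicate 2 (0.18). Adar, which edits double-stranded RNA and keeps it from being sensed, held 935, 848 and 885 in vehicle and 883, 827 and 859 with 4-OHT, a difference of -0.05 (SE 0.06, adjusted p = 0.53). The oligoadenylate synthetases Oas1a and Oas3 and the related Oasl2 differed by 0.10, 0.44 and 0.27 and did not pass, and 57.6% of the 50-base words of Oas1a also occur in Oas1g. Rsad2, the gene of viperin, differed by -0.18 (SE 0.25, adjusted p = 0.6).

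Among the membrane proteins and GTPases, 3 of 9 tested rose (33.3%, against 22.7% of all rows). Mx1, an antiviral GTPase whose C57BL/6 allele is known to carry a deletion, held 23.3, 16.3 and 10.9 normalized counts in vehicle and 33.1, 48.7 and 43.3 with 4-OHT. It had the largest rise of any member, 1.30 (SE 0.31, adjusted p = 0.0022), with no overlap, and the value was 0.99 with 4-OHT replicate 1 alone (adjusted p = 0.13). Gbp3, a guanylate-binding protein induced by interferon gamma, held 15.9, 7.1 and 9.7 in vehicle and 18.6, 23.8 and 25.0 with 4-OHT, and rose by 1.04 (SE 0.38, adjusted p = 0.032). Ifi35 rose by 0.26 (SE 0.10, adjusted p = 0.033), from 235 to 274 up to 302 to 309. The calls of Gbp3 and Ifi35 were lost in 7 of 15 and 7 of 16 alternatives, DESeq2 among them for both. Gbp2 differed by nearly as much as Gbp3, 0.95, but its vehicle values spanned 2.8 to 11.2 and it did not pass (SE 0.52, adjusted p = 0.15).

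The membrane effectors with the highest levels per 1000 bases did not pass. Ifitm3, which blocks virus entry at endosomes, held 801, 870 and 884 normalized counts in vehicle and 882, 785 and 858 with 4-OHT, a difference of -0.02 (SE 0.07, adjusted p = 0.86). Bst2, or tetherin, which holds budding virus at the membrane, held 446, 369 and 432 in vehicle and 379, 444 and 369 with 4-OHT. Its difference was -0.07 (SE 0.10, adjusted p = 0.61). The groups overlapped for both genes. The remaining members of this role, Ifitm2, Xaf1 and Rtp4, differed by -0.02, -0.19 and 0.55 and did not pass. Socs1, the feedback inhibitor of JAK kinases, held 61.6, 44.7 and 31.5 in vehicle and 67.2, 78.8 and 50.1 with 4-OHT, a difference of 0.53 (SE 0.25, adjusted p = 0.092).

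The 5 members under the filter on low values were close to the counting limit. Herc6, the mouse ISG15 ligase, had 5, 4 and 3 reads in vehicle and 4, 3 and 5 with 4-OHT. Mx2 had 8, 3 and 1 reads against 7, 9 and 10, and Ifitm1 had 1, 10 and 4 against 4, 5 and 14. Oas2 had 23, 1 and 9 reads in vehicle and 5, 5 and 11 with 4-OHT, and Ifi44 had 20, 5 and 1 against 4, 6 and 8. For all 5 the groups overlapped, and for Oas2 and Ifi44 the highest library was vehicle replicate 1.

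The vehicle libraries differed among themselves in these genes. Vehicle replicate 1 was the highest of its group in 26 of the 46 tested members (56.5%), against 32.6% of all rows. The vehicle values lay at least 1 apart on the log2 scale for 9 of the 51 members, and vehicle replicate 1 was highest in 8 of them (Ifit3, Oas2, Oas3, Mx1, Mx2, Gbp2, Gbp3 and Ifi44). Several of these held few reads in vehicle, such as Mx2 (8, 3 and 1) and Gbp2 (12, 4 and 8). The share of all rows with such a spread was not counted, so it is not shown to be particular to the members. Among the tested members the median deviation from the vehicle mean was 0.101, -0.010 and -0.064 in vehicle replicates 1, 2 and 3 and 0.107, 0.225 and 0.234 in 4-OHT replicates 1, 2 and 3. On this summary vehicle replicate 1 and 4-OHT replicate 1 had nearly the same level. Without vehicle replicate 1, 20 members were higher and 1 was lower, with Isg15, Ifit3, Oas3, Oasl2, Rtp4 and Socs1 passing there and not with all 6 libraries.

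**Figure D5:**
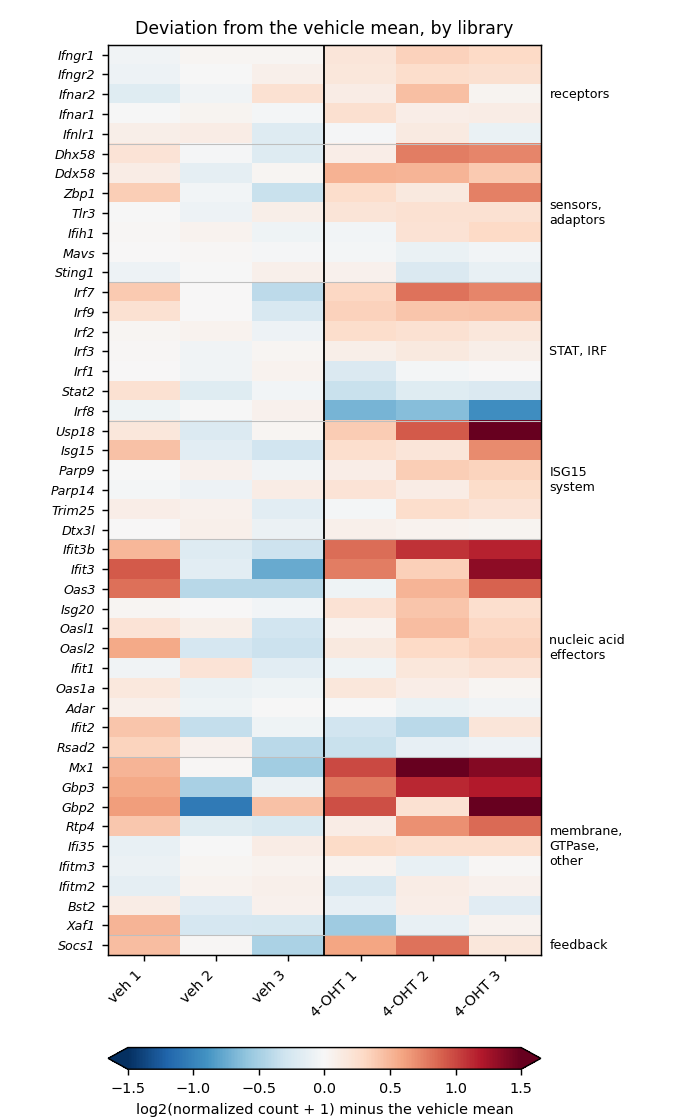
Difference of log2(normalized count + 1) from the vehicle mean for the 46 tested members (rows, by role) in each of the 6 libraries (columns), with larger differences shown in the end colours of the scale. Vehicle replicate 1 is redder than the other vehicle libraries for Ifit3, Oas3, Oasl2 and Gbp3, and Usp18, Mx1 and Dhx58 are redder in 4-OHT replicates 2 and 3 than in replicate 1.

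Members with and without the motifs were found on both sides of the threshold. Of the 17 tested members with a response element core, 4 rose (Ddx58, Irf2, Ifit3b and Gbp3), 1 fell (Stat2) and 12 did not pass, so 23.5% rose against 22.7% of all rows. Of the 21 tested members whose promoter window lacked it, 8 rose (38.1%) and 1 fell. Mx1, Usp18 and Dhx58, which rose by 1.30, 1.12 and 0.53, were among the 10 members without a promoter entry. Members without an entry are in none of these groups. Of the 12 with a gamma-activated site, 4 rose (33.3%: Ifnar1, Irf2, Isg20 and Ifi35) and Irf8 fell, and of the 26 tested members without it 8 rose (30.8%) and 1 fell. Ifit3 and Ifit3b, with the same 60 bases shown above, held 44.8 and 17.7 normalized counts in vehicle replicate 1 and 60.3 and 28.5 in 4-OHT replicate 3. They were closer in vehicle replicate 3 (13.3 and 9.7) and in 4-OHT replicate 2 (30.1 and 27.0). The split of reads between them is uncertain. No test was made of these counts.

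Genes that surround the members in the pathway were taken as 5 further lists. Of 148 genes listed, 102 were tested, of which 31 rose and 15 fell, with a median of 0.12. The share changed was 45.1%, near the 43.6% of all rows. The share that rose was 30.4% against 22.7%, and the share that fell 14.7% against 21.0%. Of the 21 interferon ligands listed, 3 had a row and none passed the filter: Ifne, Ifnk and Ifnz reached 4.6, 2.1 and 2.1 normalized counts at most. Ifne was at 0 in vehicle and at 1.0, 2.1 and 4.6 in the 4-OHT libraries.

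Of 11 tested receptor kinases and other STAT and IRF genes, 5 rose and 3 fell. These were 45.5% and 27.3%, against 22.7% and 21.0% of all rows. The receptor kinase gene Jak1 rose by 0.20 (SE 0.05, adjusted p = 0.0019), while Tyk2 differed by 0.11 (SE 0.05, adjusted p = 0.11). Il10rb, the shared chain of the lambda receptor, rose by 0.41 (SE 0.08, adjusted p = 2.9e-04). Stat5b, Stat6 and Stat3 fell by 0.26, 0.13 and 0.13 (adjusted p = 0.014, 0.031 and 0.033), and these calls were lost in 2, 5 and 7 of 16 alternatives.

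Of 21 other sensing genes tested, 4 rose and 6 fell (19% and 28.6%, against 22.7% and 21.0% of all rows). Cgas, the cytosolic DNA sensor upstream of STING, held 203, 271 and 228 normalized counts in vehicle and 179, 104 and 158 with 4-OHT, and fell by 0.69 (SE 0.16, adjusted p = 0.0018). The groups did not overlap, and with 4-OHT replicate 1 alone the value was -0.38 (adjusted p = 0.14). Tbkbp1, a TBK1-binding adaptor, fell by 1.07 (SE 0.25, adjusted p = 0.0019). Ikbke, a kinase of IRF3 and IRF7, rose by 0.33, Aim2, an inflammasome DNA sensor, by 0.29 and Prkra, an activator of PKR, by 0.26 (adjusted p = 1.9e-04, 5e-04 and 0.0058). Eif2ak2, the gene of PKR, differed by 0.02 (SE 0.06, adjusted p = 0.8).

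Of 48 other interferon-stimulated genes tested, 17 rose and 3 fell (35.4% and 6.25%, against 22.7% and 21.0% of all rows). Their median was 0.22, close to that of the members. Ifit1bl1, an Ifit1-like gene, held 98.0, 80.2 and 79.9 normalized counts in vehicle and 165, 226 and 262 with 4-OHT, and rose by 1.31 (SE 0.16, adjusted p = 1.6e-06), although Ifit1 itself did not pass. Ifi211, of the HIN-200 DNA-binding family, rose by 1.21 (SE 0.28, adjusted p = 0.0014) and Cd274, which encodes PD-L1, by 1.01 (SE 0.19, adjusted p = 2e-04). Slfn9 fell by 0.81, Ifi30, a lysosomal thiol reductase, by 0.37 and Samhd1, which depletes deoxynucleotides, by 0.22 (adjusted p = 1.5e-07, 2.9e-04 and 0.016), the last lost without vehicle replicate 1 (-0.18) or 4-OHT replicate 2 (-0.18).

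Of 22 negative regulators and nucleic acid clearance genes tested, 5 rose and 3 fell. These were 22.7% and 13.6%, against 22.7% and 21.0% of all rows. The suppressors Socs3 and Socs2 fell by 0.75 (SE 0.10, adjusted p = 3e-06) and 0.48 (SE 0.09, adjusted p = 2e-04), while Socs1 differed by 0.53 in the other direction without passing. Rnaseh2b, a subunit of the RNase that clears RNA from DNA hybrids, fell by 0.28 (SE 0.10, adjusted p = 0.024), but did not pass without 4-OHT replicate 3 (-0.17), without vehicle replicate 1 or under quantile normalization. Tnfaip3, the A20 inhibitor of NF-kB, rose by 0.56 (SE 0.06, adjusted p = 7.8e-07), Dnase2a, a lysosomal DNase, by 0.35 (SE 0.10, adjusted p = 0.0055) and Trim24 by 0.33 (SE 0.07, adjusted p = 5.4e-04).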

How the data were processed

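RNA-seq of 6 organoid libraries was analysed from 1 table of normalized counts. Per the labels' processing notes, the authors used STAR, DESeq2 and the mouse build GRCm39 (mm39), with no roles or versions. The counting tool, annotation and strand setting were not given in the sources used here. The deposited values are a signal, reads per gene divided by 1 size factor per library, with no length correction. Each column has a fixed step, the value of 1 read, and 100% of its entries divided by it to a whole number (tolerance 0.1 reads). The reads obtained this way entered the count tests, in which edgeR called 5780 rows and DESeq2 5208, against 5765 for limma. Libraries of a group differed by 3.55 to 6.41 times the counting variance (chi-square per degree of freedom), so none was counted as a copy.

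Groups came from the treatment labels. The main test was limma-trend (limma 3.58.1, R 4.3.3) applied to log2(normalized count + 1), over 13210 rows with a mean of at least 10, with Benjamini-Hochberg adjustment over all of them and a threshold of 0.05. Fold changes are on this scale, which understates changes of low genes. Errors are the SE of the fit. The members and lists were chosen with earlier results of these data known. Values per library are given for members past the threshold with a change of at least 0.5, the 2 with the highest mean in each role, every receptor and members under the filter. In the other lists, up to 3 rises and falls and Cgas, Jak1, Tyk2 and Eif2ak2 are named, and a few genes are not reported here. Ddx58, Irf9, Isg20 and further members given with values were chosen after their values were seen. Alternatives were other pseudocounts (0.1, 10), filters (none, 50), TMM and quantile scaling, the replicate number as a block, edgeR 4.0.16, DESeq2 1.42.0 and libraries left out. The fits were also run on simulated counts with few changed genes and a fixed size of change. That setting differs from these data, in which many genes changed by varied amounts. Lengths and transcripts came from GENCODE vM21 (GRCm38), and promoters from RefSeq (GRCm38.p6). These builds differ from that of the files and were used for sequence and length only.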

Additional observations from a re-analysis of the deposited data

How the results depend on the processing

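Of the 19 members past the threshold, 4 (Ifngr1, Ddx58, Irf2 and Irf8) passed in every alternative run, 6 (Ifngr2, Irf7, Irf9, Parp9, Isg20 and Mx1) were lost only without 4-OHT replicates 2 and 3, and 9 were lost in at least 1 other alternative. None of the 19 changed direction in the 300 alternative values computed. The members lower numbered 1 under quantile normalization, and those higher numbered 11 with DESeq2. Leaving out 1 library gave 11 to 21 members changed, 10 to 20 higher and 1 to 2 lower. The lowest counts came without 4-OHT replicate 3 (11 changed) and without vehicle replicate 2 (12 changed). Without 4-OHT replicates 2 and 3, 3569 rows changed and 1858 were higher in all, 6 members changed (4 higher), 24 other pathway genes changed and the members' median was 0.11, in a fit with 1 4-OHT library assumed to vary like the vehicle ones. With the replicate number as a block, 19 members and 5637 rows changed, with Ifnar1 lost and Ifit3 gained among the members. Deviations of same-numbered libraries correlated at -0.0075, 0.030 and -0.020. This does not settle whether same-numbered libraries share an animal or a culture, which the labels do not state. Without the filter on low values 15 members passed (32.6%, against 23.7% of all rows) and 13 were higher (28.3% against 12.4%). Of the other pathway genes named, Stat3, Stat6, Rnaseh2b, Samhd1 and Stat5b were lost in 7, 5, 4, 3 and 2 of 16 alternatives, and Cgas, Cd274, Aim2, Prkra, Dnase2a and Ifi211 only without 4-OHT replicates 2 and 3.

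Values that changed sign belonged to members that did not pass and to Eif2ak2, and the cause was not tested. Ifitm2 was at 0.030 under quantile normalization, and Ifnlr1 at -0.009 with edgeR and -0.004 with DESeq2. Without 4-OHT replicates 2 and 3, Ifnlr1 was at -0.022, Ifih1 at -0.038, Sting1 at 0.060, Trim25 at -0.024, Ifit1 at -0.071, Oas3 at -0.068 and Ifitm3 at 0.052. With 1 library left out, Ifnlr1 ranged from -0.091 to 0.064, Ifit2 from -0.345 to 0.040, Ifitm2 from -0.088 to 0.091, Ifitm3 from -0.060 to 0.032, Xaf1 from -0.326 to 0.061 and Eif2ak2 from -0.001 to 0.040.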
